A study of Mus musculus with 6 samples.

Results

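The genes described here encode the subunits of the 5 oxidative phosphorylation complexes, in C2C12 cells before and after 4 days of differentiation. They were chosen by symbol: the Nduf genes of complex I, Sdha to Sdhd of complex II, the Uqcr genes and Cyc1 of complex III, the Cox4 to Cox8 genes of complex IV, the Atp5 genes of complex V, and the protein genes of mitochondrial DNA. After symbols ending in -ps were dropped, 102 of the 43074 genes in the count table matched, 89 of them nuclear and 13 mitochondrial. C2C12 is an established mouse myoblast line that withdraws from the cell cycle and fuses into myotubes when serum is reduced.

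All 3 groups were wild-type C2C12 cells with 2 RNA-seq libraries each. Untreated day 0 cells were the baseline, grown with 10% fetal bovine serum per the labels. The other groups were kept for 4 days with 5% horse serum and either DMSO or 1 mM 4-phenylbutyric acid (4-PBA), a fatty acid used as a chemical chaperone and as a histone deacetylase inhibitor. The labels do not say whether the 2 libraries of a group came from separate cultures, so p-values measure the spread between these libraries, which may be technical. No untreated group was sampled at day 4, and DMSO, medium and time changed together between day 0 and day 4.

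Complexes I to IV pass electrons from NADH and succinate to oxygen, and complexes I, III and IV pump protons across the inner mitochondrial membrane. Complex V, the ATP synthase, uses the proton gradient to make ATP. Complex II is encoded by nuclear genes alone, whereas the other complexes combine nuclear subunits with subunits translated inside the mitochondrion, so their assembly draws on both genomes. Skeletal muscle is rich in these complexes, and adult heart and muscle use their own isoforms of several small complex IV subunits.

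Total counts ranged from 47908926 to 74697397 per library, and genes of mitochondrial DNA took 3.14% to 3.43% of them. The summed level of 6 myotube markers (Myog, Mymk, Myh3, Ckm, Acta1 and Ttn) was 288 to 294 CPM (counts scaled to a common library size with TMM factors) at day 0, 7000 to 7340 in DMSO and 6510 to 6630 in 4-PBA. The 5 markers listed for myoblasts summed to 1160 CPM in both day 0 libraries and to 401 to 426 CPM at day 4. Of them Ccnd1, Mki67 and Myf5 fell, while Myod1 (log2 fold change 0.22 in DMSO) and Pax7 (1.80, at most 1.40 CPM) rose. Markers of other lineages stayed low. In the 6 libraries 5 adipocyte markers summed to 7.48 to 12.2 CPM, 3 endothelial markers to at most 0.883 CPM and 3 immune markers to at most 5.7 CPM. Ucp1 and Cidea, which define brown fat, had at most 3 counts in any library, and Ucp1 had 0 in both DMSO libraries, while Dio2 carried the brown fat sum of 11.6 CPM at day 0 and 26.0 to 35.9 CPM at day 4. The 4 osteoblast markers summed to 51.9 to 81.3 CPM, nearly all of it Runx2. In bulk RNA, fewer cells of a type and less RNA per cell cannot be told apart, and this holds for every level below.

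Most of the OXPHOS transcript pool came from mitochondrial DNA. The 13 mitochondrial genes held 77.7% and 78.0% of all OXPHOS counts at day 0, 79.3% and 80.3% in DMSO, and 80.1% and 79.2% in 4-PBA. Each day 4 library lay above both day 0 libraries, whereas the DMSO and 4-PBA libraries overlapped. With 2 libraries against 2, the smallest two-sided p of an exact permutation test is 0.333, so that test could not pass and none was run. As a part of the whole library, the nuclear members held less in each day 4 library than in either day 0 library: they took 0.925% and 0.923% of all counts at day 0, 0.791% and 0.804% in DMSO, and 0.815% and 0.817% in 4-PBA. The mitochondrial members took 3.22% and 3.28%, then 3.03% and 3.29%, then 3.28% and 3.12%, and those groups overlapped.

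Per length, mitochondrial transcripts also stood far above nuclear ones. The median nuclear member was at 71.1 CPM per kilobase of transcript at day 0, 67.8 in DMSO and 70.7 in 4-PBA, against 1670, 1950 and 1910 for the median mitochondrial member. Atp5b, the catalytic beta subunit of the ATP synthase, was the most abundant nuclear member in each group, with 858.3, 689.8 and 691.1 CPM per kilobase. Atp5g3, which encodes the membrane ring subunit c, came next with 431.3, 300.4 and 316.8 CPM per kilobase. Among mitochondrial genes, mt-Co1, the catalytic core of complex IV, led with 6005, 6044 and 6055 CPM per kilobase, and mt-Nd6 of complex I was lowest with 129, 86.3 and 88.8.

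Comparing DMSO at day 4 with day 0 asks how these genes behaved during differentiation without 4-PBA. Most of the changes were small and downward, and among the complexes V had the largest share of members lower, 16 of 20. With edgeR's quasi-likelihood test and Benjamini-Hochberg adjustment over 17433 tested genes, 12 of the 97 tested members rose and 50 fell at an adjusted p under 0.05, or 63.9%. Over all tested genes 66.3% were called, 33.8% higher and 32.6% lower. The share of members called thus stood near that of all genes. The DMSO and day 0 libraries did not overlap for 79 of the 97 members and for 14273 of all 17433 tested genes. The median log2 fold change of the members was -0.09, against 0.02 for all tested genes. Their median absolute log2 fold change was 0.16, against 0.48. Only 3 members changed at least 2-fold, all of them low-abundance isoforms of complex IV, whereas 21.9% of all tested genes did. Of the 3, Cox8b and Ndufa4l2 passed the filter on low counts only through day 4. Correcting every library for its dependence on summed exon length and GC content raised the number of members called higher to 23, with 45 lower, or 23.7% and 46.4%. In that fit 34.3% of all tested genes were called higher and 32.9% lower.

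**Figure D1:**
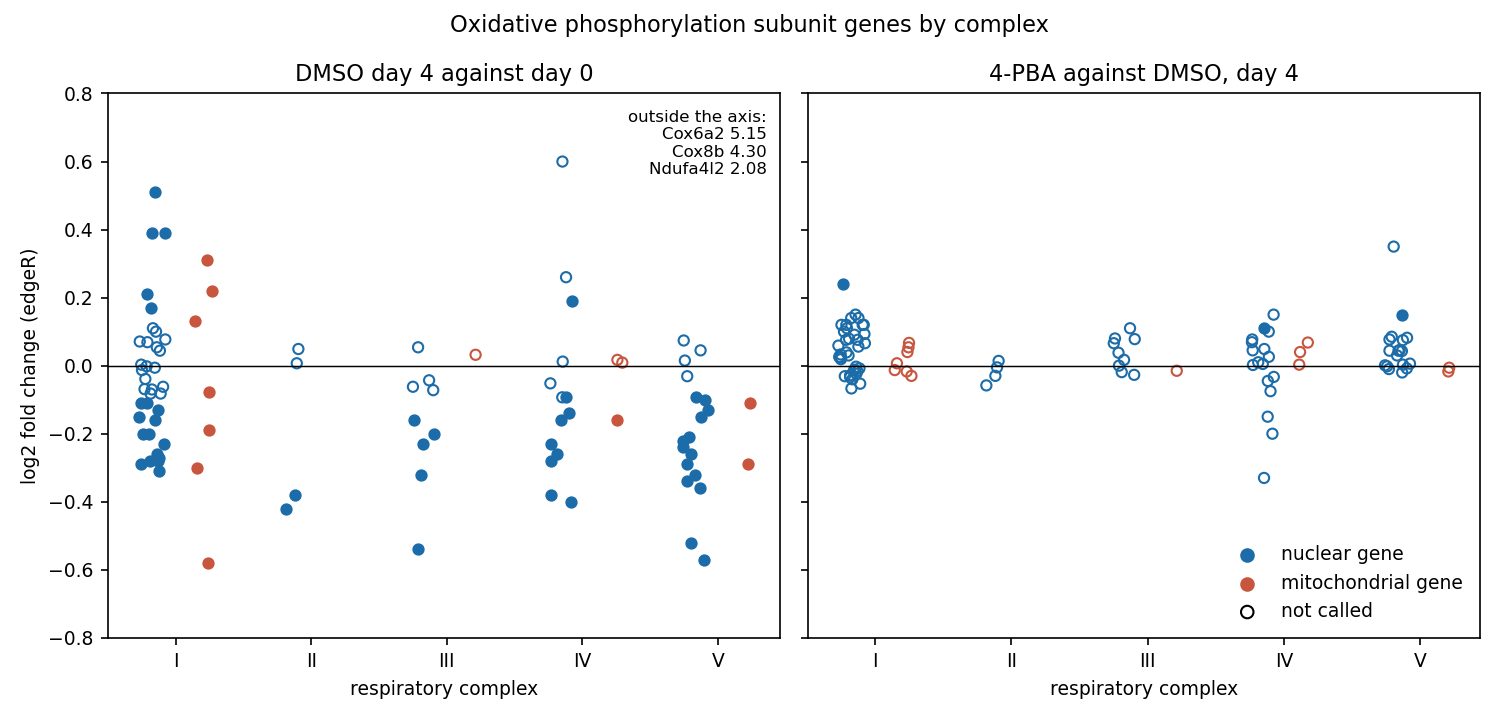
Log2 fold changes of each tested member by complex, between DMSO at day 4 and day 0 (left) and between 4-PBA and DMSO at day 4 (right); each point is 1 gene, coloured by genome and open where not called, and Cox6a2, Cox8b and Ndufa4l2 are listed on the left because they lie beyond the axis. On the left the complex V points lie mostly below 0, with a median of -0.21, and on the right nearly all points lie close to 0.

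Complex I, the NADH dehydrogenase, moved in both directions. Of its 36 tested nuclear members 5 rose and 14 fell, with a median log2 fold change of -0.07. The share called was 52.8%, below the 66.3% of all tested genes. Among those that rose were the accessory subunits Ndufv3 and Ndufa13. Ndufv3, a small subunit beside the NADH-binding site, had 26.9 and 27.4 CPM at day 0, 34.9 and 36.5 in DMSO, and 39.1 and 39.8 in 4-PBA. Its log2 fold change against day 0 was 0.39 (SE 0.056, adjusted p = 1.38e-07) in DMSO and 0.54 (adjusted p = 1.77e-10) in 4-PBA, the highest of complex I in the latter comparison. Although both 4-PBA libraries lay above both DMSO libraries, that difference of 0.14 did not pass (adjusted p = 0.136). Ndufa13, also known as Grim19, had 38.2 and 36.2 CPM at day 0, 48.1 and 49.0 in DMSO, and 52.4 and 51.3 in 4-PBA, and rose by 0.39 on the log2 scale in DMSO (adjusted p = 1.82e-08). Ndufs3 rose by 0.17 and Ndufb1 by 0.21. The iron-sulfur subunit Ndufs1 (-0.04, adjusted p = 0.342) and the NADH-binding subunit Ndufv1 (0.05, adjusted p = 0.178) did not pass. Among the 14 nuclear members that fell, the lowest log2 fold change was -0.31, for Ndufc2, which had 43.8 and 44.4 CPM at day 0 and 34.4 and 36.8 in DMSO. Summed over the 38 nuclear genes, complex I was at 0.988 to 1.01 of its day 0 mean in the 4 day 4 libraries.

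Complex II, which oxidises succinate and is also an enzyme of the TCA cycle, split by subunit. Sdhb, its iron-sulfur subunit, had 84.4 and 87.0 CPM at day 0, 63.2 and 65.3 in DMSO, and 61.7 in both 4-PBA libraries. Sdhd, a membrane anchor, had 104 and 108 CPM, then 81.8 and 81.3, then 78.7 and 81.0. For both genes the day 4 libraries lay below both day 0 libraries. Sdhb fell by 0.42 on the log2 scale (SE 0.042, adjusted p = 7.7e-11) and Sdhd by 0.38 (SE 0.039, adjusted p = 1.48e-10). The flavoprotein Sdha, with 199 and 193 CPM at day 0 and 199 and 207 in DMSO, had a log2 fold change of 0.05 (adjusted p = 0.186), and the second anchor Sdhc had one of 0.01 (adjusted p = 0.884). Leaving out the first DMSO library gave a call for Sdha, at 0.08. No complex II member rose in the reported fit, and 0 were higher at an unadjusted p under 0.05 or by DESeq2, but with the length and GC correction Sdha (0.16) and Sdhc (0.13) were called higher.

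Complex III, which passes electrons from quinol to cytochrome c, had 5 members that fell and 0 that rose among 10 tested, with 0 higher at an unadjusted p under 0.05 and 0 by DESeq2. The 5 were Cyc1, Uqcrc1, Uqcr10, Uqcr11 and Uqcrb. Cyc1, the haem-bearing cytochrome c1, had the lowest change, with 209 and 207 CPM at day 0, 142 and 144 in DMSO, and 145 and 149 in 4-PBA. No day 4 library came near the day 0 libraries, and the log2 fold change was -0.54 (SE 0.033, adjusted p = 1.33e-16) in DMSO and -0.50 in 4-PBA. The core protein Uqcrc1 fell by 0.32 on the log2 scale (adjusted p = 5.21e-10). Its partner Uqcrc2 had a log2 fold change of -0.07 (adjusted p = 0.0777), and the Rieske iron-sulfur protein Uqcrfs1, the highest member, had one of 0.05 (adjusted p = 0.249). Uqcrc2 was called lower with library size only (-0.10) or DESeq2 size factors (-0.08). With the length and GC correction 3 members were called higher, Uqcrfs1 (0.13), mt-Cytb (0.10) and Uqcrc2, which reversed to 0.08, and 5 lower.

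In complex V, 16 of 20 tested members fell and 0 rose, with 0 higher at an unadjusted p under 0.05 and 0 by DESeq2; the median log2 fold change was -0.21. Atp5b, the most abundant, had 1636 and 1653 CPM at day 0, 1325 and 1318 in DMSO, and 1323 and 1326 in 4-PBA. Atp5a1, the alpha subunit, had 683 and 675 CPM, then 536 and 525, then 547 and 546. Both genes were lower in every day 4 library. Atp5b fell by 0.32 on the log2 scale (SE 0.026, adjusted p = 5.44e-13), Atp5a1 by 0.36 (adjusted p = 1.46e-13) and the central stalk gamma subunit Atp5c1 by 0.24 (adjusted p = 1.53e-07). Atp5a1 overlaps Haus1 on the opposite strand, which was at 20.9 to 21.7 CPM at day 0 and 8.28 to 10.9 CPM at day 4. The labels name a directional library kit but not whether counting used strand, so reads of such pairs may not have been separated, and the part of Haus1 in the Atp5a1 difference was not tested.

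Subunit c, the rotating ring in the membrane, is encoded by 3 genes that yield the same mature protein from different precursors, and all 3 fell. Atp5g1 had 104 CPM in both day 0 libraries, 72.0 and 68.2 in DMSO, and 71.6 and 72.8 in 4-PBA. Atp5g3 had 308 and 316 CPM, then 210 and 224, then 233 and 225. Neither gene overlapped between day 0 and day 4. Their log2 fold changes in DMSO were -0.57 (SE 0.04, adjusted p = 9.19e-15) and -0.52 (adjusted p = 6.5e-16), and Atp5g2 had -0.34 (adjusted p = 3.3e-09). Because the 3 genes are alike in the part that encodes the mature protein, the split of reads among them is uncertain. The members of complex V that did not pass were Atp5e, Atp5k, Atp5l and Atp5o_1. Of these, the epsilon subunit Atp5e had the highest log2 fold change of the complex, 0.07 (adjusted p = 0.151), and was called higher at 0.13 with the length and GC correction, beside 14 members lower. Atp5o_1 and Atp5o_2 are separate rows for the same symbol, and how reads were divided between them is unknown. Summed over its 18 nuclear genes, complex V stood at 0.815 to 0.828 of the day 0 mean in the 4 day 4 libraries, the lowest of the 5 complexes in each library.

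**Figure D2:**
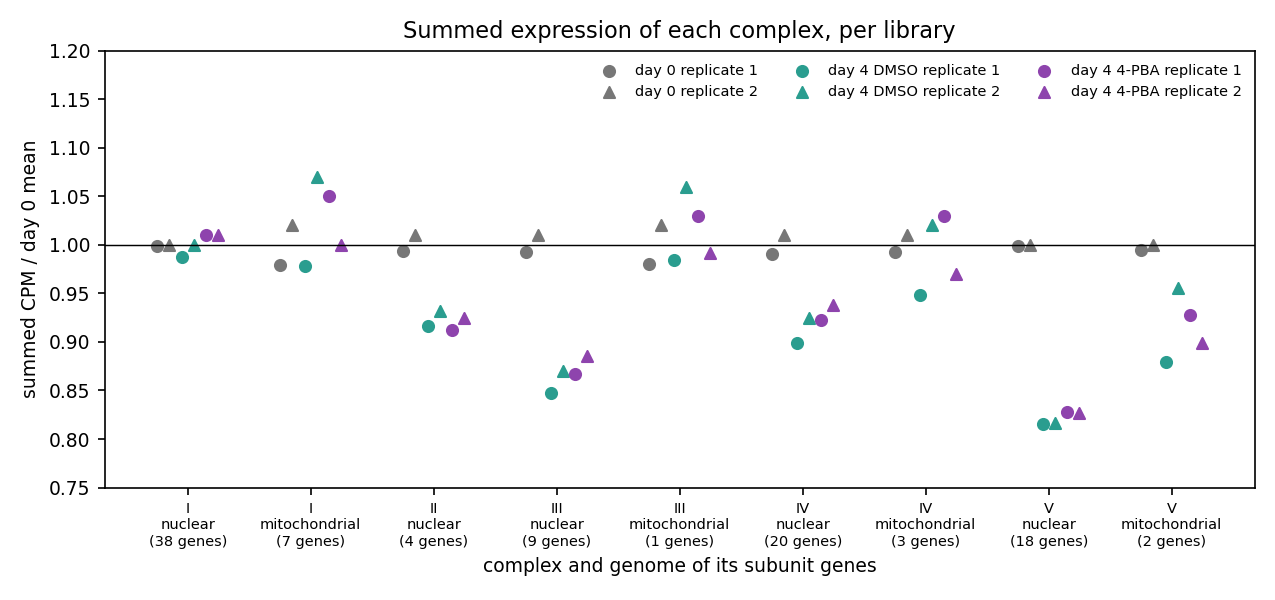
Summed CPM of the nuclear and of the mitochondrial members of each complex in each library, divided by the mean of the 2 day 0 libraries; the axis does not start at 0. Nuclear complex V sits at 0.815 to 0.828 in the 4 day 4 libraries, complex III at 0.847 to 0.885 and complex I at 0.988 to 1.01.

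Sums for the other complexes lay between these. Over the day 4 libraries, nuclear complex II was at 0.912 to 0.932 of its day 0 mean, complex III at 0.847 to 0.885 and complex IV at 0.899 to 0.938. The mitochondrial members of complexes I, III and IV spread on both sides of day 0, at 0.978 to 1.07, 0.984 to 1.06 and 0.948 to 1.03. For the 2 mitochondrial genes of complex V the ratios were 0.879 to 0.956, below both day 0 libraries. Sums follow the abundant genes, and Atp5b and Atp5a1 carried most of the counts of nuclear complex V.

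Complex IV, cytochrome c oxidase, had the only members that changed at least 2-fold. Of its 17 tested nuclear members 4 rose (Cox6a2, Cox8b, Ndufa4l2 and Cox7a2l) and 8 fell. The share called was 70.6%, near the 66.3% of all tested genes. Cox6a2 and Cox8b are the heart and muscle isoforms of subunits VIa and VIII, and Cox6a1 and Cox8a are their ubiquitous partners. Cox7a1 is the muscle isoform of subunit VIIa, whose ubiquitous form is Cox7a2. Promoters of Cox8b, Cox8a, Cox6a1 and Cox7a1 are shown. Those of Cox6a2 and Cox7a2 are not, so only the pair of Cox8a and Cox8b can be read in full beside its values. Whether the members of a pair differed in their change was not tested.

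Each line gives bases from 250 before to 30 after the start site annotated by RefSeq, on the gene's strand. The build is GRCm38.p6, and the windows are chr7:140900417-140900696 (minus strand) for Cox8b, chr19:7217587-7217866 (minus) for Cox8a, chr5:115348929-115349208 (minus) for Cox6a1 and chr7:30183921-30184200 (plus) for Cox7a1. Capitals mark the letters of 5 motifs searched on both strands: CAGCTG (an E-box bound by myogenic factors), TATAAA (the TATA box), CCGGAAG (a core bound by ETS factors, CTTCCGG on the other strand), the core bound by NRF1 (the first capitals of the Cox6a1 line) and TGACGTCA (a cAMP response element).
Cox8b: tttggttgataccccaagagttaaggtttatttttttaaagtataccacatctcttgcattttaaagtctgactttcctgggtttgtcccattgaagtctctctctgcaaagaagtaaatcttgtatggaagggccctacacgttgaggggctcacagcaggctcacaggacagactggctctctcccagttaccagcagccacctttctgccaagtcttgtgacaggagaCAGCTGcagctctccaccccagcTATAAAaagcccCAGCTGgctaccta
Cox8a: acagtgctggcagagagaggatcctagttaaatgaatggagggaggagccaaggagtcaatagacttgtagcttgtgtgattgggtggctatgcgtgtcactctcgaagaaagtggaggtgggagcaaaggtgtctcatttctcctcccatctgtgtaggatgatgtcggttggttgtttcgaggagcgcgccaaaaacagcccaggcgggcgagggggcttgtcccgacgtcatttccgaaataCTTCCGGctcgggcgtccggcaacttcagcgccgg
Cox6a1: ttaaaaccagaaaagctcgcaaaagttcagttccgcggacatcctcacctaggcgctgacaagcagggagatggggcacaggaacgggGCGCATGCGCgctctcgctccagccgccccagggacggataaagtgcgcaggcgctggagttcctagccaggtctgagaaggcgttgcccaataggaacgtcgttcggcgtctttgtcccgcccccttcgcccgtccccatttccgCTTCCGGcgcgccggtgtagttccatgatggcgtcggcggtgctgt
Cox7a1: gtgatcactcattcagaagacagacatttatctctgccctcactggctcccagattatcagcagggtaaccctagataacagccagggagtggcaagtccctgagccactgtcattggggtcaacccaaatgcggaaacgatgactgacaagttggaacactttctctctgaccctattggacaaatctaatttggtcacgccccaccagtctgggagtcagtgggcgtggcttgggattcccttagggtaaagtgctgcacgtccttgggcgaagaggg

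In Cox8b, CAGCTG began at positions -19 and 16 and TATAAA at position 4, with the annotated start as 0. Cox8a held an ETS core at -5, and Cox6a1 an NRF1 core at -162 and an ETS core at -16. The Cox7a1 window held none of the 5. Across windows of 300 bases for 69 member genes (74 windows, as some genes have several), 6.76% held the NRF1 core, 23.0% CCGGAAG, 8.11% CAGCTG, 5.41% TGACGTCA and 12.2% TATAAA. Among all 32851 windows of the RefSeq table the shares were 0.971%, 8.86%, 16.3%, 1.79% and 13.6%. These are matches of letters and not binding sites, and no factor was measured.

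Cox6a2 had 10 and 12 counts at day 0, 420 and 493 in DMSO, and 429 and 400 in 4-PBA, or 0.206 and 0.171, 6.66 and 6.65, and 6.91 and 6.44 CPM. Few reads came from the gene at day 0, and every day 4 library was far above both day 0 libraries. The log2 fold change was 5.15 (SE 0.22, adjusted p = 6.17e-21) in DMSO and 5.16 (adjusted p = 7.09e-21) in 4-PBA. Itgad, which overlaps it on the opposite strand, stayed at 0.783 to 1.19 CPM in the 6 libraries. Per length, Cox6a2 made up 0.141% and 0.118% of the Cox6a1 and Cox6a2 level at day 0, 5.26% and 5.27% in DMSO, and 5.33% and 4.94% in 4-PBA. Even at day 4 the ubiquitous Cox6a1 therefore supplied most of the transcripts of this subunit. Cox6a1 itself fell by 0.28 on the log2 scale in DMSO (SE 0.036, adjusted p = 1.48e-08), from 123 and 121 CPM to 101 and 100.

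Cox8b followed Cox6a2 at a lower level. It had 6 and 8 counts at day 0, 123 and 204 in DMSO, and 129 and 126 in 4-PBA, with log2 fold changes against day 0 of 4.30 (SE 0.34, adjusted p = 2e-13) and 4.10 (adjusted p = 1.18e-12). Cox8b passed the filter on low counts only through its day 4 libraries, and these p-values carry that limit. Its share of the Cox8a and Cox8b level per length was 0.192% and 0.165%, then 2.84% and 3.9%, then 2.83% and 2.71%. The day 4 libraries were all above day 0, and the treatments overlapped. Cox8a had 98.2 and 105 CPM at day 0 and 102 and 103 in DMSO, a log2 fold change of 0.01 (adjusted p = 0.797). With that length and GC correction, Cox8a was called lower at -0.13.

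Cox7a1, the third muscle isoform, was not called. Its 44 and 70 counts at day 0, 62 and 96 in DMSO, and 72 and 56 in 4-PBA gave 0.905 and 0.997, 0.983 and 1.29, and 1.16 and 0.902 CPM. The groups overlapped between day 0 and DMSO, and the log2 fold change was 0.26 (95% interval -0.31 to 0.83, adjusted p = 0.43). Cox7a2 fell by 0.23 (adjusted p = 6.49e-05), while Cox7a2l, a relative that helps join complexes III and IV into supercomplexes, rose by 0.19 (adjusted p = 1.35e-05), from 110 and 109 CPM to 123 and 126. Cox7a1 made up 1.78% and 1.88% of the Cox7a1 and Cox7a2 level per length at day 0, 2.23% and 2.86% in DMSO, and 2.59% and 1.85% in 4-PBA, which overlapped day 0.

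**Figure D3:**
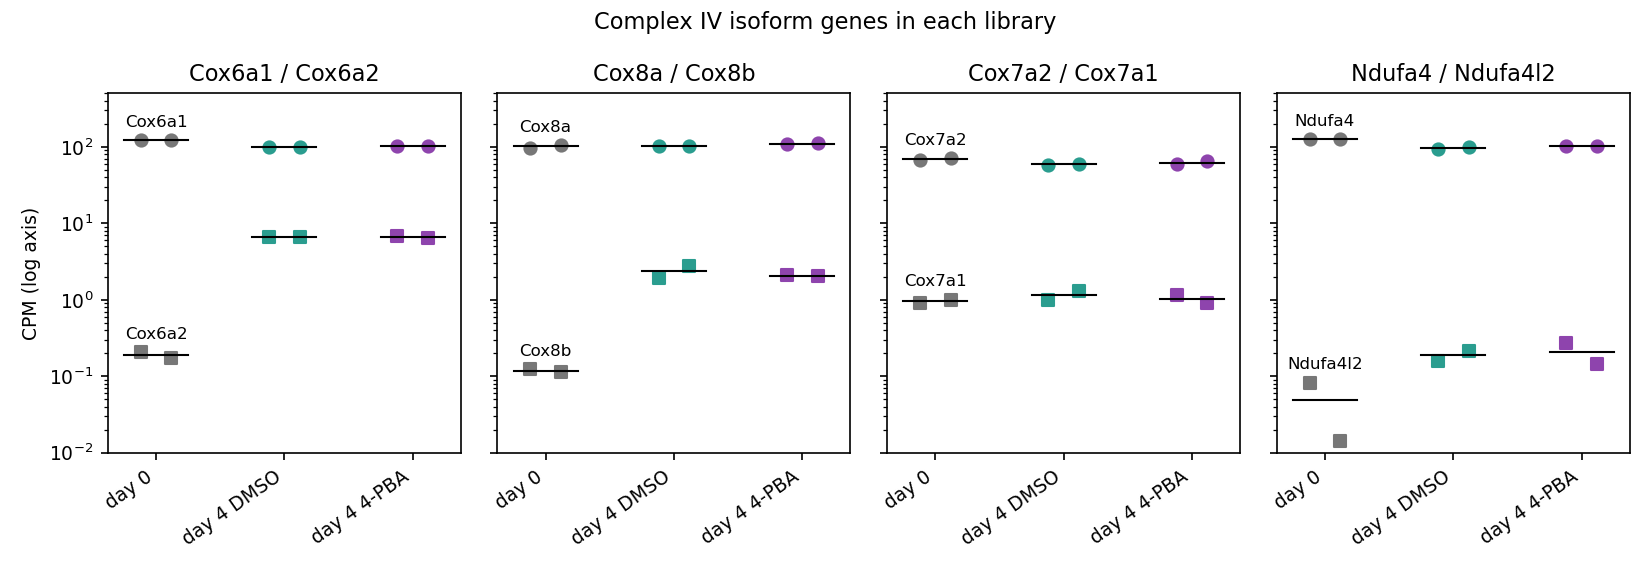
CPM on a log axis of 4 complex IV isoform pairs in each library, with circles for the ubiquitous gene, squares for its partner and bars for the group mean of 2 libraries. Cox6a2 and Cox8b stand at 0.114 to 0.206 CPM at day 0 and 1.95 to 6.91 CPM at day 4, whereas Cox7a1 lies between 0.902 and 1.29 CPM throughout and Ndufa4l2 does not exceed 0.274 CPM.

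The other complex IV isoforms were rare in these cells. Ndufa4l2, a relative of the complex IV subunit Ndufa4 known from hypoxia, had 4 and 1 counts at day 0, 10 and 16 in DMSO, and 17 and 9 in 4-PBA. Its log2 fold change of 2.08 (SE 0.87, adjusted p = 0.0352) did not pass in DESeq2, nor when the second day 0 library was left out (1.18), and it also missed the threshold without either DMSO library or either 4-PBA library. It overlaps Shmt2, which had 131 to 269 CPM. Cox7b2 had 14 to 36 counts per library and a log2 fold change of 0.60 (adjusted p = 0.275). Cox4i2 had at most 5 counts and Cox6b2 at most 6 in any library, Ndufb4b had 2 counts in a single day 0 library, and Cox8c and Ndufb11b had 0 in every library, which allows up to 3 counts per library. These 5 were the members left out by the filter on low counts. Among tested members, Cox8b and Ndufa4l2 had under 10 counts in each day 0 library and passed the filter only through day 4.

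The ubiquitous nuclear subunits of complex IV mostly fell. Cox5a, which sits on the matrix side, had the lowest change, with 99.2 and 101 CPM at day 0, 75.4 and 75.7 in DMSO, and 71.8 and 71.6 in 4-PBA. Its day 4 libraries were all below day 0, and the log2 fold change was -0.40 (SE 0.039, adjusted p = 2.87e-11) in DMSO and -0.48 in 4-PBA. Ndufa4 fell by 0.38 (adjusted p = 7.74e-11), the zinc-binding Cox5b by 0.26 (adjusted p = 6.61e-06) and the regulatory subunit Cox4i1 by 0.16 (adjusted p = 5.39e-05). Cox4i1 overlaps Emc8 on the opposite strand, which had 45.3 and 45.4 CPM at day 0 and 32.0 and 33.5 in DMSO. The part of Emc8 in the Cox4i1 difference was not tested. Cox6b1 passed narrowly at -0.09 (adjusted p = 0.038) and Cox7b missed at -0.09 (adjusted p = 0.0511). Cox7b was called lower with DESeq2 size factors (-0.102), library size only (-0.121), scaling over genes that are not mitochondrial (-0.096) or a replicate block (-0.094). It was at -0.002 with the length and GC correction, -0.022 without the first DMSO library and -0.169 without the second. The Cox6b1 call was lost in DESeq2 and without either day 0 library, the first DMSO library or the first 4-PBA library.

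The 13 genes of mitochondrial DNA are transcribed as long precursors that are cut into mRNAs, and all but mt-Nd6 lie on the strand that also carries the rRNAs. Of these genes 3 rose and 7 fell in DMSO, and the directions differed within complex I. The share called was 76.9%, beside 66.3% of all tested genes. mt-Nd6 had 65.2 and 69.1 CPM at day 0, 44.1 and 45.6 in DMSO, and 45.4 and 46.8 in 4-PBA. mt-Nd5 had 1784 and 1903 CPM, then 2175 and 2388, then 2324 and 2186. For each of the 2 genes the day 4 libraries lay wholly on a single side of day 0. The log2 fold change was -0.58 (SE 0.048, adjusted p = 3.67e-13) for mt-Nd6, the lowest of complex I, and 0.31 (SE 0.056, adjusted p = 0.00253) for mt-Nd5. The 2 genes overlap on opposite strands, so their counts are uncertain if strand was not used. The mt-Nd5 call was lost without the second DMSO library (0.24, adjusted p = 0.0516).

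Along the mitochondrial genome, the genes that rose were neighbours. mt-Nd4l, mt-Nd4 and mt-Nd5 follow each other among the protein genes, with log2 fold changes of 0.13 (adjusted p = 0.00179), 0.22 (adjusted p = 0.00288) and 0.31. Before them, mt-Nd1 fell by 0.30 (SE 0.046, adjusted p = 0.000263), from 2654 and 2773 CPM to 2098 and 2304. mt-Atp8 fell by 0.29 (adjusted p = 1.9e-10), mt-Nd3 by 0.19 (adjusted p = 0.00256), mt-Co2 by 0.16 (adjusted p = 0.000533), mt-Atp6 by 0.11 (adjusted p = 0.00642) and mt-Nd2 by 0.08 (adjusted p = 0.0216). The complex IV genes mt-Co1 and mt-Co3 and the complex III gene mt-Cytb did not pass, at 0.01, 0.02 and 0.03. mt-Co1, the most abundant of all, had 9176 and 9378 CPM at day 0, 8978 and 9697 in DMSO, and 9609 and 9101 in 4-PBA, and its groups overlapped. The pairs mt-Atp8 with mt-Atp6 and mt-Nd4l with mt-Nd4 overlap on the same strand and share reads.

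The first DMSO library had the lowest share of mitochondrial genes (3.138%) and the second DMSO library a higher one (3.411%), and this spread touched the smaller changes. Without the first DMSO library, mt-Atp6 was at -0.05 and mt-Nd2 at -0.04, neither called, mt-Nd3 at -0.10 and mt-Co2 at -0.10, and mt-Co1 and mt-Cytb were called higher at 0.07 and 0.09. Without the second, mt-Atp6 was at -0.18, mt-Nd2 at -0.12, mt-Nd4 at 0.14 and mt-Nd5 at 0.24. Calls for mt-Atp6 and mt-Nd2 were also lost without the second day 0 library, at -0.10 and -0.06, and that for mt-Nd2 without either 4-PBA library, at -0.07 and -0.08. With the length and GC correction mt-Nd2 was not called either (-0.04), while mt-Co1 and mt-Cytb were called higher at 0.10 each, for 5 mitochondrial members higher and 6 lower.

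**Figure D4:**
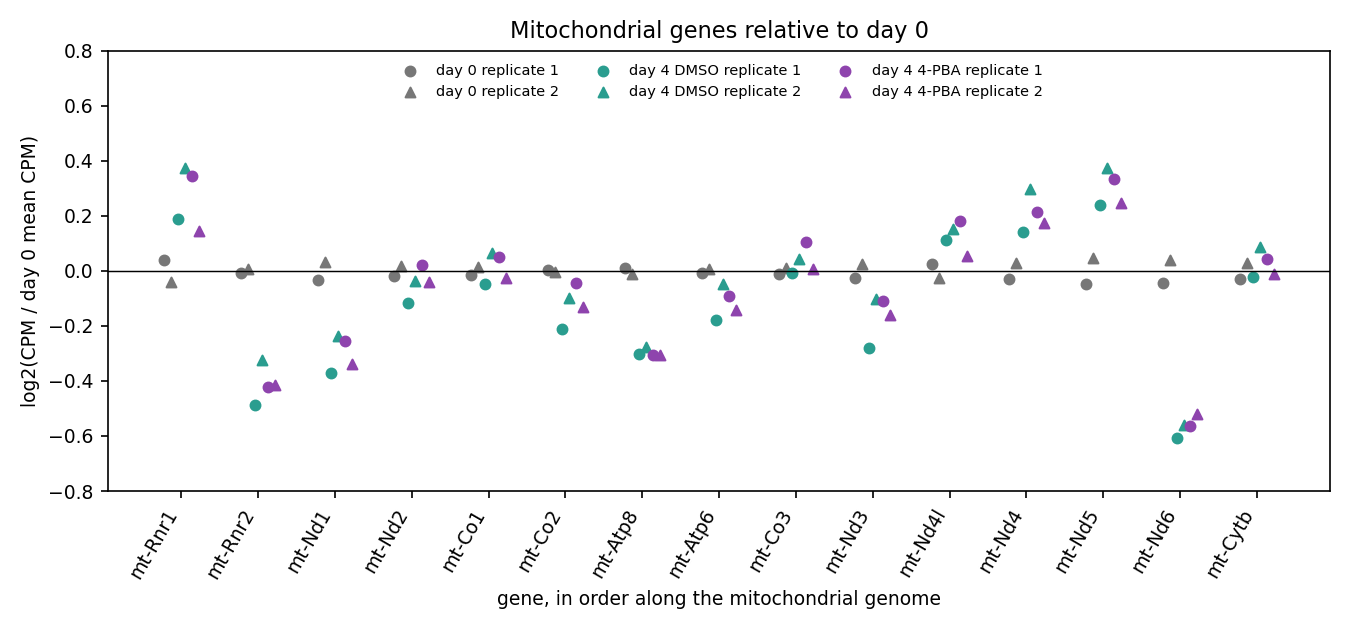
Log2 ratio of the CPM in each library to the day 0 mean, for the mitochondrial mRNAs and rRNAs in their order along the mitochondrial genome; each symbol is 1 library. The run mt-Nd4l, mt-Nd4, mt-Nd5 lies above 0 in the 4 day 4 libraries, whereas mt-Rnr2, mt-Nd1, mt-Atp8 and mt-Nd6 lie below 0.

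The rRNAs of the same genome differed from each other too. The large rRNA mt-Rnr2 fell by 0.40 on the log2 scale (adjusted p = 5.03e-07), from 1347 and 1360 CPM to 964.9 and 1081. The small rRNA mt-Rnr1, which precedes it, had 130 and 123 CPM at day 0 and 144 and 164 in DMSO, and its change of 0.29 did not pass in the reported fit (adjusted p = 0.0862). It passed in DESeq2, and in edgeR with no filter beyond 1 count, with only the 4 libraries compared, and without either 4-PBA library. Of 24 mitochondrial RNAs that encode no protein, 9 were tested and 44.4% of these called, beside 66.3% of all tested genes. All 4 that were called fell. Among them were mt-Tw and mt-Tp, the tRNAs for tryptophan and proline, at -1.37 and -1.29, with at most 2.14 and 1.12 CPM. The mt-Tp call was lost without the second day 0 library (-0.91) or the second DMSO library (-1.07).

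Whether 4-PBA altered these genes during differentiation is answered by the comparison between the 2 day 4 groups. The differences were slight: 3 of 97 tested members rose (3.09%) and 0 fell, against 4.9% called over all tested genes, 2.13% higher and 2.78% lower. At an unadjusted p under 0.05, 14 members were higher and 0 lower, beside 2908 of all 17433 tested genes in either direction. DESeq2 called 1 member higher and 0 lower, beside 3.91% of all genes. The median log2 fold change was 0.03 for nuclear and 0.00 for mitochondrial members, beside 0.00 for all tested genes. The mitochondrial median ran from -0.03 to 0.06 with 1 library left out. No member changed at least 2-fold, which 0.0688% of all tested genes did. The share of members called was thus no higher than the background.

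Ndufc1, a small accessory subunit of complex I, had the largest called difference, with 21.5 and 23.5 CPM in DMSO and 27.6 and 25.6 in 4-PBA, and 25.2 and 26.4 at day 0. Its 4-PBA libraries lay above both DMSO libraries and overlapped day 0. The log2 fold change was 0.24 (SE 0.066, adjusted p = 0.0248). Atp5md, a small subunit of the ATP synthase dimer, had 61.7 and 67.5 CPM in DMSO and 71.1 and 73.0 in 4-PBA (0.15, SE 0.045, adjusted p = 0.034). Cox6c of complex IV had 131 and 133 CPM in DMSO and 141 and 145 in 4-PBA (0.11, SE 0.034, adjusted p = 0.0446). For both genes the 2 groups did not overlap, which also held for 46 of the 97 tested members and 7933 of all 17433 tested genes. Without the first DMSO library the log2 fold changes were 0.18 for Ndufc1, 0.09 for Atp5md and 0.10 for Cox6c. Without the first 4-PBA library they were 0.188, 0.175 and 0.13, and without the second 0.295, 0.136 and 0.098. The calls were lost in each of those fits, which leave 1 library in a group. Without the first DMSO library mt-Atp6 and mt-Nd4 were called lower instead. Without the second, the calls held and further members were called higher. Atp5md and Cox6c also missed the threshold without either day 0 library. In DESeq2 and when the day 0 libraries were kept out of the fit, Ndufc1 alone was called, beside 3.91% and 4.51% of all genes.

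The 95% intervals show how large a difference between these libraries the model allowed. They rest on 2 libraries a group, which may be technical, and on spread borrowed from other genes. They therefore may not bound a 4-PBA effect across separate cultures. Among the 91 members with at least 10 CPM on average, log2 fold changes ran from -0.08 to 0.24, and 86 of the 91 had a 95% interval within 0.25 of 0 on the log2 scale, a factor of 1.19. The outermost interval bounds were -0.17, for Ndufb2, and 0.38, for Ndufc1. The lowest and highest members of each complex that did not pass were Ndufb5 (-0.07), Uqcrc2 (-0.03) and Uqcrq (0.11), Cox7b2 (-0.33) and Ndufa4l2 (0.15), and Atp5j (-0.02) and Atp5o_1 (0.35). Of these Cox7b2, Ndufa4l2 and Atp5o_1 had under 2 CPM in each library, and their values rest on few reads. No mitochondrial member passed, and 1 was higher at an unadjusted p under 0.05 and 0 by DESeq2. The muscle isoforms Cox6a2 (0.01, adjusted p = 0.989) and Cox8b (-0.20, adjusted p = 0.737) did not pass either, while the myotube marker sum above was lower in both 4-PBA libraries than in either DMSO library.

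Set against day 0, cells kept in 4-PBA had 17 of 97 members higher and 42 lower (60.8%), beside 65.6% over all tested genes, 33.2% higher and 32.4% lower. This comparison shares its day 0 libraries with the previous one against day 0. Nuclear members had a median log2 fold change of -0.08 and mitochondrial members of -0.01. Cyc1, Cox5a, Atp5g1 and mt-Nd6 were the lowest members of complexes III, IV, V and I, at -0.50, -0.48, -0.53 and -0.54, and Cox6a2 was the highest at 5.16. As in DMSO, 3 members changed at least 2-fold, beside 21.2% of all tested genes. Uqcrq was the highest of complex III at 0.07 (adjusted p = 0.157) and Atp5o_1 of complex V at 0.40 (adjusted p = 0.182), neither of them called. With that length and GC correction, 30 members were called higher and 39 lower. These were 30.9% and 40.2%, beside 33.5% and 32.8% of all tested genes.

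Genes that serve these complexes were followed in lists drawn from textbook roles, all for DMSO against day 0. Their counts stand beside the 66.3% of all tested genes called, 33.8% higher and 32.6% lower. Mitochondrial ribosomal proteins, which translate the 13 mitochondrial mRNAs, fell widely: 62 of 78 tested were lower and 0 higher, with 0 higher at an unadjusted p under 0.05 and 0 by DESeq2, and the median log2 fold change was -0.38. With the length and GC correction 60 were lower and 6 higher (76.9% and 7.69%), beside 32.9% and 34.3% of all tested genes. Mrps6 had 46.4 and 47.5 CPM at day 0 and 16.3 and 16.9 in DMSO, a log2 fold change of -1.5 (adjusted p = 2.22e-21). Mrpl12 fell by 1.19 and Mrpl18 by 1.00. Of 31 genes of mitochondrial DNA expression and maintenance 19 fell and 4 rose, with Tbrg4 at -0.87, Pnpt1 at -0.53, and the mRNA-stabilising Lrpprc at -0.38. Tfam, which packages mitochondrial DNA and starts its transcription, fell by 0.45 (adjusted p = 1.89e-10).

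Upstream regulators did not rise as a group: of 14 tested, 3 rose and 6 fell, a share called of 64.3% that lies near that of all genes. Log2 fold changes over the 14 ran from -0.74 to 1.30, and 1 of the genes that rose changed at least 2-fold. Gabpb2, a subunit of the ETS factor NRF2, fell by 0.74, the coactivator Pprc1 by 0.46 and Nrf1 by 0.38, whereas the corepressor Nrip1 rose by 0.44. Ppargc1a, the coactivator PGC-1 alpha, had 2.16 and 2.76 CPM at day 0, 1.54 and 2.05 in DMSO, and 1.5 and 1.53 in 4-PBA. Its log2 fold change of -0.46 in DMSO just missed the threshold (adjusted p = 0.0508). In the TCA cycle, which feeds the chain with NADH and succinate, 10 of 14 enzymes fell and 2 rose, among them Idh3a (-0.65), Mdh2 (-0.54) and Idh2 (-0.53), all lower.

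Assembly factors were called about as often as all genes (64.2%), with 12 of 53 higher and 22 lower. Higd2a rose by 0.83, and Cmc2 and Coa7, which serve complex IV, fell by 1.38 and 0.80. The list of genes outside the symbol rule mixed carriers and subunits with other proteins, and all 9 tested were called. The 5 higher were Coq10a, Coq10b, Dmac1, Dmac2 and Dmac2l, and the 4 lower were Cycs, Ndufab1, Tmem186 and Atpif1. Cytochrome c itself, Cycs, had 53.7 and 51.4 CPM at day 0 and 28.9 and 30.5 in DMSO and fell by 0.82, while the coenzyme Q-binding Coq10a rose by 1.03 and Coq10b by 0.46. Of 11 genes of coenzyme Q synthesis 4 rose and 5 fell. Coq8a, a kinase-like protein of that pathway, had 0.597 and 0.541 CPM at day 0, 30.8 and 33.2 in DMSO, and 26.5 and 27.6 in 4-PBA, a log2 fold change of 5.82 (SE 0.12, adjusted p = 1.46e-30) in DMSO. Pdss1, which makes the isoprenoid tail of coenzyme Q, fell by 1.32 and Coq7 by 0.86.

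Few of these supporting genes differed between 4-PBA and DMSO. Coq8a was lower in 4-PBA by a log2 fold change of -0.24 (adjusted p = 0.0245), Nrip1 by -0.19 (adjusted p = 0.0132) and Tbrg4 by -0.14 (adjusted p = 0.0485). Mrps36, also known as a subunit of the oxoglutarate dehydrogenase complex, was higher by 0.26 (adjusted p = 0.0334) and Mrpl18 by 0.18 (adjusted p = 0.0215). No assembly factor passed in edgeR, with 3 higher and 3 lower at an unadjusted p under 0.05. Without either 4-PBA library, none of these 5 calls held. The Tbrg4 call was also lost in DESeq2 and without either day 0 library or the first DMSO library. That of Coq8a was lost in DESeq2 and without the second DMSO library (-0.19), and that of Mrps36 in DESeq2 and without the first DMSO library (0.23).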

How the data were processed

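RNA-seq libraries from 6 C2C12 samples were analysed. The deposited values are raw counts per gene symbol in 1 column for each library, per the file headers, without normalisation or pooling. GRCm39 is the build per the submitters' processing notes; the aligner, counter and annotation are not given in the sources used here. Replicates differed by more than sampling noise (chi-square per degree of freedom 3.98, 7.15 and 5.71), so none was merged. Counts were tested with edgeR 4.0.16 in R 4.3.3 (filterByExpr, TMM, robust glmQLFit, 1 mean per group over all 6 libraries, 3 residual degrees of freedom, median prior 30.4, common biological coefficient of variation 3.74%). p-values were Benjamini-Hochberg adjusted over 17433 genes and called under 0.05. Standard errors are the absolute log2 fold change over the square root of F. Having 2 libraries a group, the model borrows its estimate of spread from other genes and groups.

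DESeq2 1.42.0, other scalings and filters, a replicate block, a length and GC correction and leaving out each library were alternatives. The methods were checked on simulated counts. Lengths, gene overlaps and gene order came from GENCODE M21, an older build, so none of its coordinates is given; 97 members had a length, 30 overlapped a gene on the other strand and 11 on the same strand. Levels per kilobase use the longest protein-coding transcript. Ndufa4 and Ndufa4l2 were counted with complex IV. Promoters came from RefSeq (GRCm38.p6). Figures used Python 3.11.15 and matplotlib 3.10.9.

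The members and all gene lists were chosen with earlier results of these data known. Named genes were the isoform, core and mitochondrial genes, the highest and lowest member of complexes I, III, IV and V in each comparison, every member called between 4-PBA and DMSO, and from each other list the 3 with the smallest adjusted p and any called between 4-PBA and DMSO. Ndufa13, Ndufs3, Ndufb1, Ndufc2, Atp5g2, Atp5g3, Tfam, Nrf1, Ppargc1a and the genes overlapping members were named after their values were seen. So were Ndufab1, Dmac1, Dmac2, Dmac2l, Tmem186 and Atpif1. 1 gene that this rule selects is not reported here.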

Additional observations from a re-analysis of the deposited data

How the results depend on the processing

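In DMSO against day 0, 12 members higher and 50 lower became 9 to 16 and 40 to 52 with 1 library left out, and 23 were higher with the length and GC trend removed. The nuclear median log2 fold change of -0.093 became -0.121 with library size only, -0.071 with that trend removed and -0.124 to -0.084 with 1 library left out. In 4-PBA against DMSO, 3 higher became 1 in DESeq2 and 1 in a fit of the 4 libraries compared, beside 3.91% and 4.51% of all genes called. With 1 library left out, the members called differed from fit to fit. The nuclear median of 0.031 ranged from 0.02 to 0.051 and the mitochondrial median of 0.003 from -0.034 to 0.062. In 4-PBA against day 0, 17 higher became 30 with the trend removed. There the nuclear median of -0.077 became -0.095 with library size only, -0.019 with the trend removed and -0.088 to -0.067 with 1 library left out, and the mitochondrial median of -0.01 became 0.052 with the trend removed. The cause of these shifts was not tested.

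Without mt-Co1 the mitochondrial share of OXPHOS counts was 71.5% at day 0, 73.7% with DMSO and 73.5% with 4-PBA. From CPM in place of levels per length, isoform shares were 0.154%, 6.21% and 6.05% for Cox6a2, 0.116%, 2.23% and 1.83% for Cox8b, and 1.35%, 1.89% and 1.65% for Cox7a1, in the same order of groups.

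Genes near 0 that changed sign were Cox8a (-0.016 with library size only, -0.129 with the trend removed, -0.038 to 0.065 with 1 library left out), Ndufs1 (0.006 with the trend removed), Sdhc (-0.002 with DESeq2 size factors, -0.021 with library size only, -0.003 in DESeq2, -0.001 with 4 libraries, -0.035 to 0.05 with 1 left out), Uqcrc2 (0.079 with the trend removed), mt-Co1 (-0.019 with library size only, -0.048 to 0.065), mt-Co3 (-0.011, -0.009 to 0.044) and mt-Cytb (-0.025 to 0.087), all for DMSO against day 0. For 4-PBA against DMSO they were Cox7b2 (-1.13 to 0.185), Ndufa4l2 (-0.37 to 0.538) and Atp5j (-0.041 to 0.001).

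Replicate numbers did not pair the samples: correlations of same-numbered deviations were -0.0279, -0.00306 and -0.0116 over 17433 genes. With the replicate number as a block, 2 members were higher with 4-PBA than with DMSO, and 12 were higher and 51 lower with DMSO than at day 0. Among 105 log2 fold changes of named genes, 1359 alternative values kept direction and side of the threshold, 65 lost a call, 23 gained one and 23 changed sign. Counts under 10 in each day 0 library limit the precision for Cox8b and Ndufa4l2.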
